A study of Mus musculus with 12 samples.

Results

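The genes described here are 10 CC chemokine ligands, *Ccl2*, *Ccl3*, *Ccl4*, *Ccl5*, *Ccl6*, *Ccl7*, *Ccl8*, *Ccl9*, *Ccl12* and *Ccl24*, found by their symbols among the 18180 genes of the deposited table, where all 10 had a row. They were measured by bulk RNAseq in EGFR+ cells of mouse glioblastoma (GBM), in 4 sorted populations (PDGFRA+, PDGFRA-, GAL1+ and GAL1-). The 12 libraries came from 3 tumors called T3, T4 and T5, so that n = 3 per population. The tumors of all 4 populations arose in mice of a mixed background (C57Bl/6J, 129S4, FVBN/J and Balb/cJ in the labels, with SJL added in the study's methods) after intracranial injection of a Cre lentivirus. The engineered lesions include human *EGFR* turned on by Cre and a constitutive loss of *Cdkn2a*, and the mice carried a conditional luciferase reporter. PDGFRA is a growth factor receptor of glial progenitors, and GAL1 is Galectin-1, a sugar-binding protein encoded by *Lgals1*. Both sorts were made from the same tumors, so cells of a PDGFRA population and of a GAL1 population can be the same kind of cell. The study calls the sorted cells CD45- in its Results, but the antibodies it lists for sorting are those to EGFR, PDGFR and Galectin-1. The tumors differ from patient GBMs in being driven by one set of engineered lesions, and no tumor-free brain was among these libraries.

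CC chemokines are small secreted proteins that bind heptahelical G protein-coupled receptors on leukocytes and guide them along a gradient into tissue. In brain tumors they are best known for drawing monocytes from blood and for positioning microglia and macrophages, and they are made in large amounts by activated myeloid cells as well as by tumor and stromal cells. *Ccl2*, *Ccl7* and *Ccl12* encode ligands of CCR2 that attract monocytes. *Ccl8* belongs to the same monocyte chemoattractant group, although the mouse protein acts mainly on CCR8. *Ccl3* and *Ccl4* encode macrophage inflammatory proteins, of which the *Ccl3* product acts on CCR1, and *Ccl5* encodes the ligand long known as RANTES, which attracts T cells and monocytes. *Ccl6* and *Ccl9* are rodent ligands of CCR1 made by myeloid cells. *Ccl24* encodes an eotaxin, a ligand of CCR3 that attracts eosinophils.

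In RefSeq's annotation of GRCm38.p6, 9 of the 10 genes lie on chromosome 11 and *Ccl24* lies on chromosome 5. The chromosome 11 genes form neighboring runs. In one, *Ccl2* is followed by *Ccl7*, *Ccl11*, *Ccl12* and *Ccl8*, and in the other *Ccl5* is followed by *Ccl9*, *Ccl6*, *Ccl3* and *Ccl4*. Promoter sequences were at hand for 5 of the 10 genes (*Ccl12*, *Ccl8*, *Ccl9*, *Ccl6* and *Ccl3*). Those of *Ccl12* and *Ccl8* and of *Ccl9* and *Ccl6* are shown, as each is a pair of neighbors with wide differences between populations, and within the second pair one promoter holds the motifs marked and the other does not. Each is the 120 bases before the gene's start from RefSeq on GRCm38.p6, read on the gene's strand, at chr11:82101725-82101844 (+ strand) for *Ccl12*, chr11:82115065-82115184 (+ strand) for *Ccl8*, chr11:83578637-83578756 (- strand) for *Ccl9* and chr11:83593088-83593207 (- strand) for *Ccl6*. Capitals mark TATAAA on either strand and, in *Ccl9* only, a match to the NF-kB consensus motif on the opposite strand.

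Ccl12: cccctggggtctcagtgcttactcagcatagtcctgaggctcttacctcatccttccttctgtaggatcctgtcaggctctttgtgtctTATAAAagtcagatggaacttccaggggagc
Ccl8: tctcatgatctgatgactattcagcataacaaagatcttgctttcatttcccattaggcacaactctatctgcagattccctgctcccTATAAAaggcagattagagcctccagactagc
Ccl9: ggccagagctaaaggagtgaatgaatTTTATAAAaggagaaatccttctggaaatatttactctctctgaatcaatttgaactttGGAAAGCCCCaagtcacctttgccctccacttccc
Ccl6: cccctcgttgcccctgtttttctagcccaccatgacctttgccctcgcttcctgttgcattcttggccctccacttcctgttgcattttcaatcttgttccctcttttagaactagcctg

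TATAAA lay 31 to 26 bases before the start of *Ccl12* and 32 to 27 bases before that of *Ccl8*, and 92 to 87 bases before that of *Ccl9*, where its match on the opposite strand overlaps it. On the gene's strand these letters occurred in 3 of the 5 promoters of 250 bases and in 7.59% of all 32851 promoters of that length. The NF-kB motif was found 35 to 26 bases before the start of *Ccl9*, on the opposite strand, and in 3.9% of all promoters on either strand. Of the other motifs searched on both strands of the 250 bases, AP-1 (TGANTCA) occurred in 1 of the 5 promoters and 6.75% of all promoters, PU.1 (GAGGAA) in 3 and 23.3%, C/EBP (TTGCNNAA) in 0 and 9.56%, and the GAS element (TTCNNNGAA) in 0 and 7.02%. A match of letters describes the sequence and is not a binding site.

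Values are log2 CPM (reads of a gene scaled to a common library total) as the authors deposited them, so a step of 1 is a doubling. Differences between populations are log2 fold changes from limma's moderated test over all 18180 genes with the tumor as a block, given with their standard error (SE) and a Benjamini-Hochberg adjusted p over all genes, and a gene was called at an adjusted p under 0.05. Recovered reads per library ran from 9851175 to 24117541, and 3 reads, taken as the lowest level detected, lay at a log2 CPM between −2.99 and −1.44. The gene of the GAL1 sort, *Lgals1*, was higher in GAL1+ than GAL1- cells (log2 fold change 1.29, adjusted p = 0.000967), whereas *Pdgfra* was higher in PDGFRA+ than PDGFRA- cells by 1.60 without being called (adjusted p = 0.249). *Ptprc*, which encodes CD45, was detected in all 4 populations, from a log2 CPM of 3.70 in the GAL1- library of T3 to values of 8.21 and above in the GAL1+ libraries. On the first principal component of all genes, the PDGFRA- library of T5 lay at 82.4, among the GAL1+ libraries (63.8 to 120), while the other PDGFRA- libraries had scores of −13.5 (T3) and −16.8 (T4). Counts of ligands called that use this library are also given without it. In bulk samples, fewer cells of a type and less RNA per cell cannot be told apart.

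All 10 CC chemokine ligands were higher in GAL1+ than in GAL1- cells, where 28.9% of all genes were called higher. Their median log2 fold change was 4.66, beside −0.03 over all genes. The sizes differed widely among the ligands, from 1.56 for *Ccl2* to 7.99 for *Ccl8*, and each ligand was higher in GAL1+ cells of T3, T4 and T5. Within T3, T4 and T5 the median over the 10 ligands was 5.81, 3.91 and 4.26. The study named 8 of the 10 for higher levels in these GAL1+ libraries than in PDGFRA+ libraries. The count called here is therefore not independent of that choice.

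**Figure D1:**
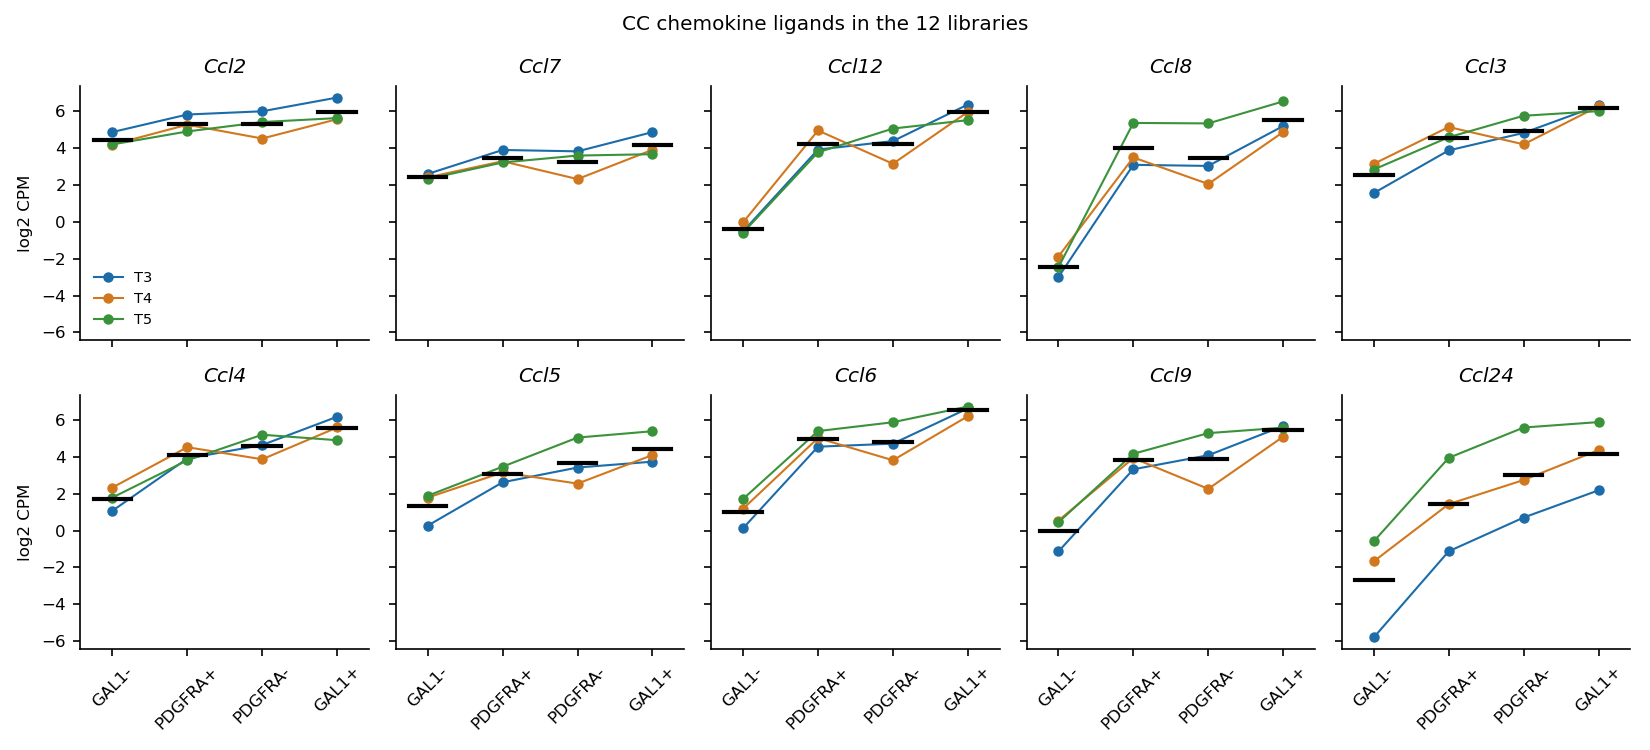
The log2 CPM of each of the 10 ligands (y axis) in the GAL1-, PDGFRA+, PDGFRA- and GAL1+ libraries (x axis), with a point per library, lines joining libraries of the same tumor (T3, T4, T5) and black bars for the mean of 3 libraries. GAL1- libraries are lowest and GAL1+ highest on average for every ligand, with a shallow slope in *Ccl2* and *Ccl7*, a steep one in *Ccl8*, *Ccl12* and *Ccl24*, and the T4 line dipping in PDGFRA- cells for most ligands.

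*Ccl2*, the main monocyte chemoattractant, had log2 CPM values of 6.75, 5.57 and 5.64 in the GAL1+ libraries of T3, T4 and T5 and of 4.87, 4.20 and 4.21 in the GAL1- libraries. T3 was highest in both groups, and the groups did not overlap. The log2 fold change was 1.56 (SE 0.21, adjusted p = 0.000237). *Ccl7*, its neighbor and a second CCR2 ligand, had values of 4.87, 3.91 and 3.68 in GAL1+ and 2.60, 2.42 and 2.33 in GAL1- libraries, again without overlap and again with T3 highest. Its log2 fold change was 1.70 (SE 0.29, adjusted p = 0.000877). GAL1- cells thus held both genes well above the detection floor, with 437.7 to 817 reads of *Ccl2* and 124 to 169 reads of *Ccl7* per library. The share of all genes without overlap between GAL1+ and GAL1- libraries was not counted. Of all genes, 58.2% were called in either direction.

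*Ccl12*, the third CCR2 ligand, was at 6.37, 5.97 and 5.52 in the GAL1+ libraries of T3, T4 and T5 and at −0.51, −0.02 and −0.58 in the GAL1- libraries. The GAL1- values rest on 16 to 23 reads per library. The groups were far apart, with a log2 fold change of 6.33 (SE 0.49, adjusted p = 3.93e-05). *Ccl8* was at 5.21, 4.88 and 6.54 in GAL1+ and at −2.99, −1.88 and −2.46 in GAL1- libraries. Its GAL1- values correspond to 3, 6 and 4 reads, of which the first is at the floor. The log2 fold change of 7.99 (SE 0.55, adjusted p = 3.93e-05) therefore depends on the offset of 0.5 reads added before the logarithm, and it was 5.32 on the log2(CPM + 1) scale. Within the run of genes that starts with *Ccl2*, the pair *Ccl2* and *Ccl7* had the smallest differences of the 10 ligands, and the pair *Ccl12* and *Ccl8* had some of the largest.

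*Ccl3*, a macrophage inflammatory protein, was at 6.32, 6.28 and 6.01 in GAL1+ libraries, the tightest spread of the 10 in that population (SD 0.167, n = 3), and at 1.57, 3.15 and 2.84 in GAL1- libraries. Its log2 fold change was 3.68 (SE 0.43, adjusted p = 0.000111). *Ccl4*, its neighbor and a second macrophage inflammatory protein, was at 6.18, 5.59 and 4.90 in GAL1+ and 1.07, 2.33 and 1.79 in GAL1- libraries. The difference was 3.83 (SE 0.45, adjusted p = 0.000116), and for both genes the GAL1- library of T3 was the lowest. *Ccl5*, which attracts T cells and monocytes, was at 3.74, 4.10 and 5.39 in GAL1+ and 0.27, 1.79 and 1.89 in GAL1- libraries, with a log2 fold change of 3.10 (SE 0.42, adjusted p = 0.000236). None of these 3 genes overlapped between the groups, a feature not counted over all genes. In RefSeq the gene models of *Ccl3* and *Ccl4* overlap, and *Ccl5* and *Ccl6* each overlap a long noncoding RNA. Whether strand was used in counting is not given in the sources used here, so their reads may be shared in part.

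*Ccl6*, a rodent CCR1 ligand, had log2 CPM values of 6.63, 6.21 and 6.73 in GAL1+ libraries and 0.12, 1.18 and 1.72 in GAL1- libraries. *Ccl9*, the neighboring CCR1 ligand, had 5.67, 5.10 and 5.59 in GAL1+ and −1.14, 0.54 and 0.45 in GAL1- libraries. The differences of *Ccl6* and *Ccl9* were almost equal, with log2 fold changes of 5.51 (SE 0.37, adjusted p = 3.93e-05) and 5.50 (SE 0.60, adjusted p = 7.68e-05). Neither gene overlapped between the groups, a feature not counted over all genes. Both have fractional recovered reads in several libraries. The study counted multi-mapping reads in parts, and where the fractions of these genes come from was not tested. No stretch of 75 bases, the read length, in any of the 10 genes' transcripts was shared with a transcript of another gene in GENCODE's annotation of GRCm38. That search covered annotated transcripts and not the rest of the genome.

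*Ccl24*, the eotaxin, varied most between tumors. It was at 2.19, 4.37 and 5.89 in the GAL1+ libraries of T3, T4 and T5 and at −5.80, −1.67 and −0.58 in the GAL1- libraries. T3 was lowest and T5 highest in both, and the GAL1- libraries held 0, 7 and 16 reads. The log2 fold change was 6.83 (SE 0.42, adjusted p = 3.93e-05), and it was 3.89 on the log2(CPM + 1) scale. The gap between GAL1+ and GAL1- cells was 7.99, 6.04 and 6.47 within T3, T4 and T5.

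**Figure D2:**
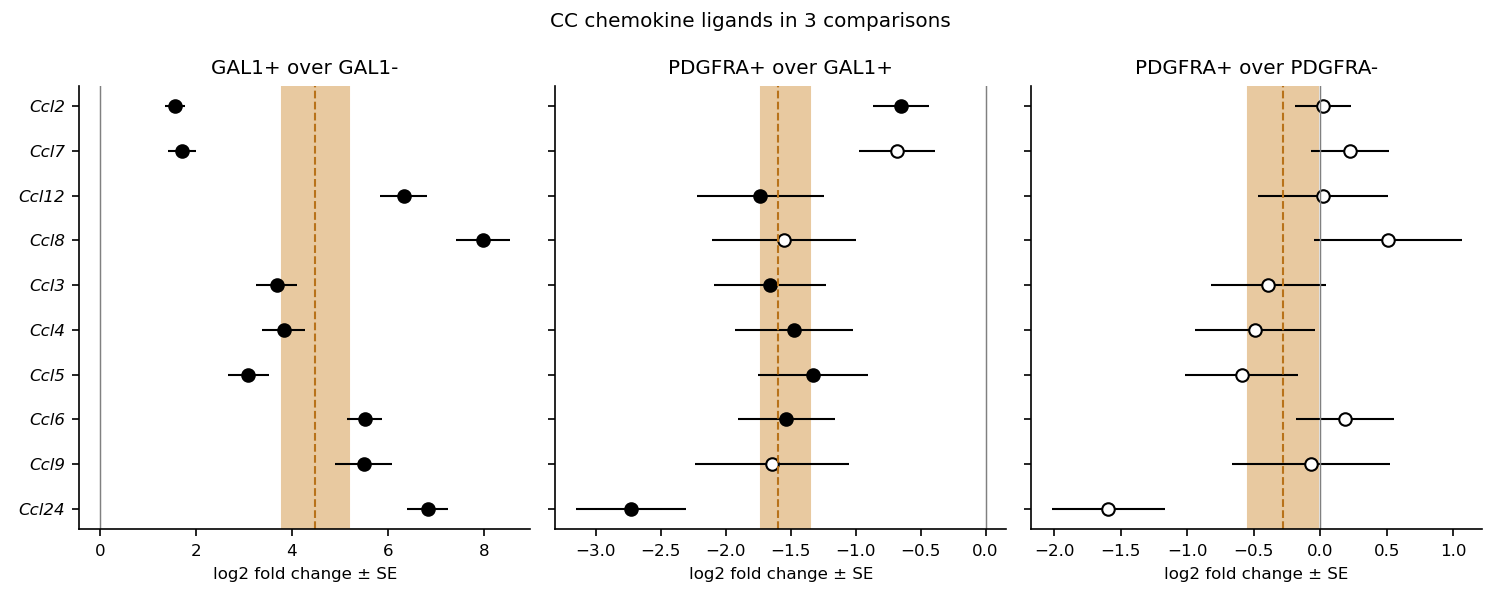
Log2 fold change ± SE (x axes) of the 10 ligands (rows) in GAL1+ over GAL1-, PDGFRA+ over GAL1+ and PDGFRA+ over PDGFRA- cells, with filled points for called genes, and with the range (shaded) and median (dashed) of 14 pan-leukocyte genes. In GAL1+ over GAL1- cells the ligands spread from 1.56 to 7.99 on both sides of the pan-leukocyte range of 3.80 to 5.19, and in PDGFRA+ over PDGFRA- cells all points are open.

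Per kilobase of exon, the order of the ligands differed between populations. In GAL1+ cells *Ccl12* was highest, at a log2 CPM per kilobase of 6.85 ± 0.42 (SD, n = 3), followed by *Ccl3* at 6.59 ± 0.17, *Ccl8* at 6.51 ± 0.88 and *Ccl2* at 6.29 ± 0.66, and these neighbors in the order lay within their spread. *Ccl9* at 3.86 ± 0.31 and *Ccl24* at 3.77 ± 1.86 were lowest. In GAL1- cells *Ccl2* led, at 4.72 ± 0.39, above *Ccl3* at 2.91 ± 0.84 and *Ccl7* at 2.77 ± 0.14, while *Ccl12* was at 0.52 ± 0.31 and *Ccl8* at −1.47 ± 0.56. *Ccl2* also led in PDGFRA+ cells at 5.64 ± 0.46 and in PDGFRA- cells at 5.62 ± 0.74, ahead of *Ccl12* at 5.12 ± 0.65 and *Ccl3* at 5.32 ± 0.78 respectively, within the spread. Exon lengths are from GENCODE on GRCm38, not from the annotation used in counting.

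Between PDGFRA+ and PDGFRA- cells, 0 of the 10 ligands were called, and 0% of all genes were called, with a smallest adjusted p of 0.181. Without the PDGFRA- library of T5 the count of ligands was also 0. The median log2 fold change of the ligands was −0.03, beside −0.02 over all genes. The tumors went different ways, and PDGFRA+ cells were higher for 9 of the 10 ligands in T4, for 2 in T3 and for 1 in T5. Within T3, T4 and T5 the ligand median was −0.60, 0.95 and −1.14. The median of the 14 pan-leukocyte genes, whose products mark leukocytes of all lineages, was −0.80, 1.17 and −1.17 in the same tumors.

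*Ccl12* shows the split. It was at 3.93, 4.96 and 3.78 in the PDGFRA+ libraries of T3, T4 and T5 and at 4.39, 3.16 and 5.07 in the PDGFRA- libraries. PDGFRA- cells were higher in T3 and T5 and lower in T4, so the groups overlapped, and the log2 fold change was 0.02 (95% confidence interval −1.08 to 1.12, adjusted p = 0.990). *Ccl9* was at 3.33, 3.93 and 4.17 in PDGFRA+ and 4.09, 2.26 and 5.29 in PDGFRA- libraries. Its difference of −0.07 had an interval from −1.41 to 1.26, so differences of more than 2-fold in either direction were not excluded at this precision. For *Ccl2* the interval was narrower, from −0.46 to 0.50.

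*Ccl24* was the exception in direction. It was at −1.13, 1.44 and 3.95 in the PDGFRA+ libraries of T3, T4 and T5 and at 0.71, 2.74 and 5.59 in the PDGFRA- libraries. PDGFRA+ cells were lower in each tumor, although the groups overlapped because the tumors lay far apart. The log2 fold change was −1.59 (SE 0.42, 95% confidence interval −2.55 to −0.64), with an adjusted p of 0.254 from limma, and so was not called. Without the PDGFRA- library of T5 it was −1.37 (adjusted p = 0.746). It was the only ligand with an unadjusted p under 0.05, as were 5.74% of all genes on the lower side. *Ccl8* was the other ligand with one sign in all 3 tumors, at 0.06, 1.44 and 0.03, and a log2 fold change of 0.51 (adjusted p = 0.748).

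The difference of the GAL1 sort was set against that of the PDGFRA sort, as (GAL1+ minus GAL1-) minus (PDGFRA- minus PDGFRA+). This difference was called and positive for all 10 ligands, as it was for 16.6% of all genes, from 1.58 for *Ccl2* (SE 0.30, adjusted p = 0.00503) to 8.49 for *Ccl8* (SE 0.78, adjusted p = 0.00130). It was positive in T3, T4 and T5 for each ligand. Leaving out T3 reduced the count to 6 ligands, and the share of all genes called in either direction from 31.1% to 14.2%. Leaving out the PDGFRA- library of T5 left the count at 10, beside 39.9% of all genes. All 14 pan-leukocyte genes were also called positive, with a median of 4.10 beside 4.29 for the ligands. The GAL1+ libraries, from which the study named 8 of the ligands, enter this difference, so the count of ligands is not independent of that choice.

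The study compared PDGFRA+ with GAL1+ cells and named 8 of the 10 ligands, all but *Ccl2* and *Ccl7*, from that comparison in these libraries, so their direction here is not independent evidence. PDGFRA+ cells were lower for 7 of the 10, namely *Ccl2*, *Ccl3*, *Ccl4*, *Ccl5*, *Ccl6*, *Ccl12* and *Ccl24*, where 17% of all genes were called lower. Their median over the 10 was −1.54, beside 0.01 over all genes, and each ligand was lower in PDGFRA+ cells of all 3 tumors. *Ccl24* differed most, with the PDGFRA+ values above set against 2.19, 4.37 and 5.89 in GAL1+ cells and a log2 fold change of −2.73 (SE 0.42, adjusted p = 0.00208). *Ccl2* was at 5.83, 5.28 and 4.91 in PDGFRA+ libraries, overlapping the GAL1+ values, and its log2 fold change was −0.65 (SE 0.21, adjusted p = 0.0384). *Ccl6*, at 4.55, 5.02 and 5.40 in PDGFRA+ libraries, lay below every GAL1+ library, with a log2 fold change of −1.53 (SE 0.37, adjusted p = 0.0117). *Ccl3* was at 3.88, 5.15 and 4.60 in PDGFRA+ libraries, also below every GAL1+ library, and its log2 fold change was −1.66 (SE 0.43, adjusted p = 0.0158). The share of all genes without overlap between these libraries was not counted. Of the 3 ligands not called, *Ccl8* had an adjusted p of 0.0513, *Ccl9* of 0.0539 and *Ccl7* of 0.0941 (limma), with log2 fold changes of −1.55, −1.64 and −0.68. The count was 1 without T3, 2 without T5, 9 without T4 and 3 without the replicate block. Of all genes, 38% were called in either direction with all libraries. That share was 11.6% without T3, 23.5% without T5, 26.7% without T4 and 17.3% without the block.

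PDGFRA+ cells held more of the ligands than GAL1- cells. Of the 10, 9 were called higher in PDGFRA+ cells, all but *Ccl7*, where 8.26% of all genes were called higher. The log2 fold changes ran from 0.91 for *Ccl2* (adjusted p = 0.0269) to 6.43 for *Ccl8* (adjusted p = 0.00117), and *Ccl7* was at 1.02 (adjusted p = 0.0674). Without T3, 0 ligands were called, and limma called 0 of all genes. Without T5, 5 ligands were called, and without the GAL1- library of T3, 6. Of all genes, 3.94% and 5.92% were called in these fits, beside 8.27% with all libraries. *Ccl8*, at 3.10, 3.50 and 5.37 in PDGFRA+ libraries with 127 to 750 reads, was well above the 3 to 6 reads of the GAL1- libraries.

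PDGFRA- cells were also higher than GAL1- cells for 9 of the 10 ligands, again all but *Ccl7* (log2 fold change 0.80, adjusted p = 0.0756), where 16.2% of all genes were called higher. *Ccl24* had a log2 fold change of 5.70 (adjusted p = 0.000457) and *Ccl8* of 5.92 (adjusted p = 0.000652). The count was 5 without T5 and 8 without the PDGFRA- library of T5 alone, where *Ccl24* was at 5.47 and *Ccl8* at 5.39. In either direction, 23.1% of all genes were called with all libraries, 5.06% without T5 and 11.1% without that library alone.

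Against GAL1+ cells, PDGFRA- cells were lower for 3 of the 10 ligands, *Ccl6*, *Ccl8* and *Ccl12*, where 6.91% of all genes were called lower. The log2 fold changes were −1.72 for *Ccl6* (adjusted p = 0.0164), −2.06 for *Ccl8* (adjusted p = 0.0319) and −1.75 for *Ccl12* (adjusted p = 0.0361). This comparison turned on the PDGFRA- library of T5, whose *Ccl4* value of 5.20 was above the GAL1+ value of 4.90 of the same tumor. Without that library 8 ligands were called, with *Ccl6* at −2.04, *Ccl8* at −2.60 and *Ccl12* at −2.36, and without T5 altogether 5, whereas 0 were called without T3, without T4 or without the replicate block. The calls over all genes moved as well. In either direction, 20.1% of all genes were called with all libraries, 32.1% without that library and 20.1% without T5. The share was 4.33% without T3, 0% without T4 and 3.99% without the replicate block. These comparisons share populations, so their values are set side by side and were not compared as independent results. Those with GAL1+ cells also use the libraries from which the study named 8 of the ligands.

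The pan-leukocyte genes moved with the ligands. All 14 were higher in GAL1+ than in GAL1- cells, with a median log2 fold change of 4.49 and a range from 3.80 for *Coro1a* to 5.19 for *Arhgdib*, and their mean log2 CPM ran from 2.10 to 3.52 in GAL1- libraries and from 7.24 to 7.57 in GAL1+ libraries. *Ptprc* was at 8.21 and 8.74 in the GAL1+ libraries of T3 and T4 and still higher in that of T5, and at 3.70, 5.18 and 4.94 in the GAL1- libraries of T3, T4 and T5. The ligands were therefore also expressed relative to the mean of the 14 genes in the same library, which removes what all 14 share. On that scale 95.6% of all genes were called in GAL1+ over GAL1- cells, nearly all of them lower, since the median of all genes moved to −4.52. Of the 10 ligands, 6 were called, 3 in each direction. All genes share the noise of the 14-gene mean on this scale, which raised limma's prior degrees of freedom to 56.7, far more than 3 tumors give. The SEs and adjusted p-values below therefore use each gene's own spread on 6 residual degrees of freedom, a choice made after the data were seen. By that fit all 10 ligands were called, 5 in each direction, as were 96.8% of all genes, so a call on this scale sets a ligand apart from the 14 genes and not from other genes.

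**Figure D3:**
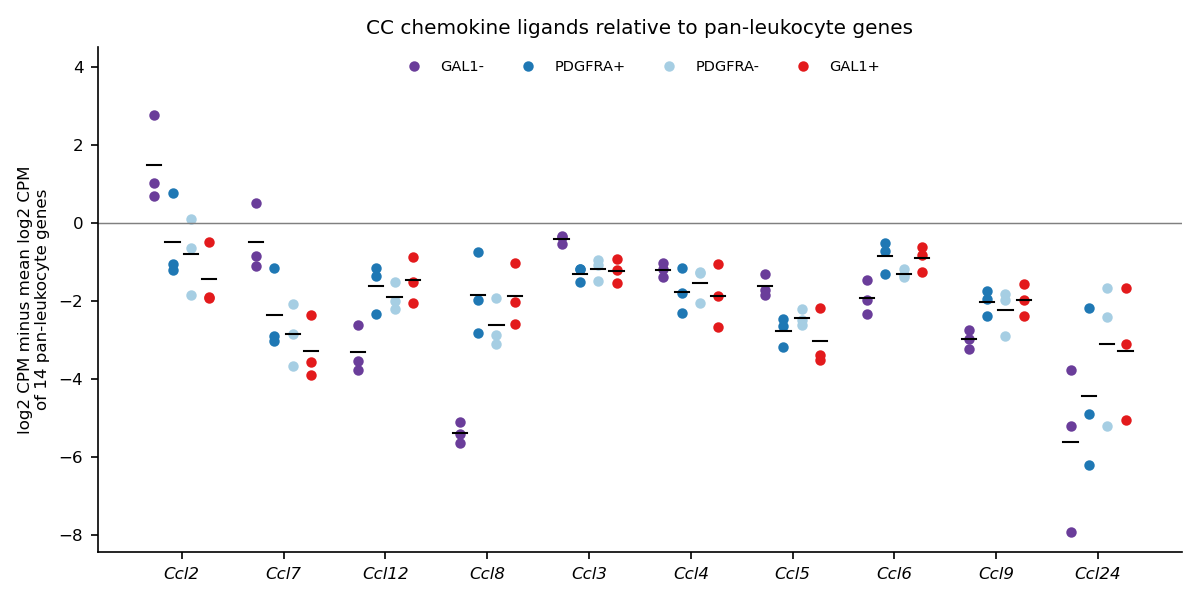
The log2 CPM of each ligand minus the mean log2 CPM of 14 pan-leukocyte genes in the same library (y axis), by ligand (x axis) and population (colors), with a point per library and bars for means of 3. GAL1- points stand above GAL1+ points for *Ccl2* and *Ccl7* and below them for *Ccl12* and *Ccl8*, while all *Ccl3* points lie between −1.55 and −0.35.

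Relative to pan-leukocyte genes, *Ccl8* was higher in GAL1+ than GAL1- cells by 3.50 (SE 0.44, adjusted p = 0.000438), *Ccl24* by 2.34 (SE 0.38, adjusted p = 0.00107) and *Ccl12* by 1.84 (SE 0.18, adjusted p = 0.000422), each in all 3 tumors. *Ccl12* relative values were −0.87, −1.51 and −2.04 in GAL1+ libraries and −2.62, −3.54 and −3.77 in GAL1- libraries, which did not overlap. The share of all genes without overlap on this scale was not counted. With log2(CPM + 1) values, which damp the low GAL1- levels, none of these 3 was called higher by limma's moderated fit and *Ccl24* turned to −0.35. *Ccl2* was lower in GAL1+ cells by −2.93 (SE 0.31, adjusted p = 0.000422), *Ccl7* by −2.79 (SE 0.24, adjusted p = 0.000422) and *Ccl5* by −1.39 (SE 0.28, adjusted p = 0.00289). *Ccl2* stood at 2.77, 0.68 and 1.02 relative to the pan-leukocyte mean in GAL1- libraries and at −0.49, −1.90 and −1.93 in GAL1+ libraries. *Ccl3* (−0.81), *Ccl4* (−0.66), *Ccl6* (1.02) and *Ccl9* (1.01) were called with their own spread and not by limma's moderated fit.

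In PDGFRA+ over GAL1+ cells, 0 of the 10 ligands were called relative to pan-leukocyte genes, while 66.3% of all genes were by the moderated fit and 13.8% with each gene's own spread. The moderated values ran from −1.14 for *Ccl24* (adjusted p = 0.0951) to 0.94 for *Ccl2* (adjusted p = 0.122), and 0 had an unadjusted p under 0.05, beside 3 (*Ccl2*, *Ccl7* and *Ccl24*) with their own spread. In PDGFRA+ over PDGFRA- cells 0 ligands were called on this scale, beside 0% of all genes, and 1 had an unadjusted p under 0.05 (limma), *Ccl24* at −1.33. Without the PDGFRA- library of T5 the count called was also 0. The part that leukocytes among the sorted cells have in the ligand levels was not tested.

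Receptors for these ligands were higher in the same population. Of 11 CC receptor genes listed, 5 had a value here, and the others, *Ccr3* and *Ccr8* among them, were absent from the 18180 genes with values. In GAL1+ over GAL1- cells all 5 were called higher, with a median log2 fold change of 4.03, where 28.9% of all genes were called higher. *Ccr2*, the monocyte receptor of the *Ccl2*, *Ccl7* and *Ccl12* products, rose by 4.18 (adjusted p = 7.21e-05) and *Ccr1*, shared by *Ccl3*, *Ccl6* and *Ccl9* products, by 4.03 (adjusted p = 5.83e-05). *Ccr6*, a receptor of lymphocytes and dendritic cells, rose by 2.12 (adjusted p = 0.0141) and *Ccr7*, which guides cells to lymph nodes, by 0.95 (adjusted p = 0.0297). Between PDGFRA+ and GAL1+ cells, *Ccr1* and *Ccr2* fell, by 1.74 and 2.27, and *Ccr6* (−0.81) and *Ccr7* (−0.57) were not called. *Ccr2* had the lowest value in PDGFRA+ over PDGFRA- cells, at −1.70 (adjusted p = 0.254), and no receptor was called there.

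Of 5 atypical receptors, which bind chemokines without G protein signaling, 3 had a value and all 3 were called higher in GAL1+ than GAL1- cells. The share of all genes called higher there was 28.9%. *Ccrl2* rose by 4.60 (adjusted p = 3.93e-05), *Ackr2*, a scavenger of inflammatory CC chemokines, by 2.22 (adjusted p = 0.00533) and *Ackr3* by 1.02 (adjusted p = 0.00772). The *Ackr2* values lay near the floor, with 2 to 8 reads in GAL1- and 4 to 25 reads in GAL1+ libraries. Of 5 further CC ligands with a value, 2 were higher, *Ccl11*, an eotaxin that lies between *Ccl7* and *Ccl12*, by 3.04 (adjusted p = 0.000139) and *Ccl22*, a ligand of CCR4, by 1.31 (adjusted p = 0.00723). *Ccl11* had 3 to 23 reads in GAL1- libraries. *Ccl25*, a ligand of CCR9, fell by 1.12 (adjusted p = 0.00123), and *Ccl17* (−0.69, adjusted p = 0.153) and *Ccl1* (−1.09, adjusted p = 0.234) were not called. The direction was thus not common to all CC ligands in the table.

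Of 26 genes that carry signals from chemokine receptors, 19 were higher in GAL1+ than GAL1- cells and 0 were lower, with *Vav1* (log2 fold change 4.82) near the top and *Gnb2* (−0.18) and *Grk6* (−0.15), which were not called, at the bottom. *Vav1* encodes an exchange factor of blood cells. Of 26 inducers of chemokine genes, 21 were higher and 2 lower, and of all genes 28.9% were called higher. *Il1a*, an interleukin that turns on NF-kB, rose by 5.85 and *Tlr2*, a receptor for microbial products, by 5.22. *Jun*, a subunit of AP-1, fell by 0.74 (adjusted p = 0.00132), and *Ifng*, at −1.18, was not called (adjusted p = 0.0895). *Fos*, its partner in AP-1, was the other inducer that was lower, by −0.70, and is named after its value was seen. Relative to pan-leukocyte genes, limma's moderated fit called 17 of the 26 signaling genes lower and 0 higher. It called 20 of the 26 inducers lower and 1 higher, beside 95.6% of all genes called in either direction.

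**Figure D4:**
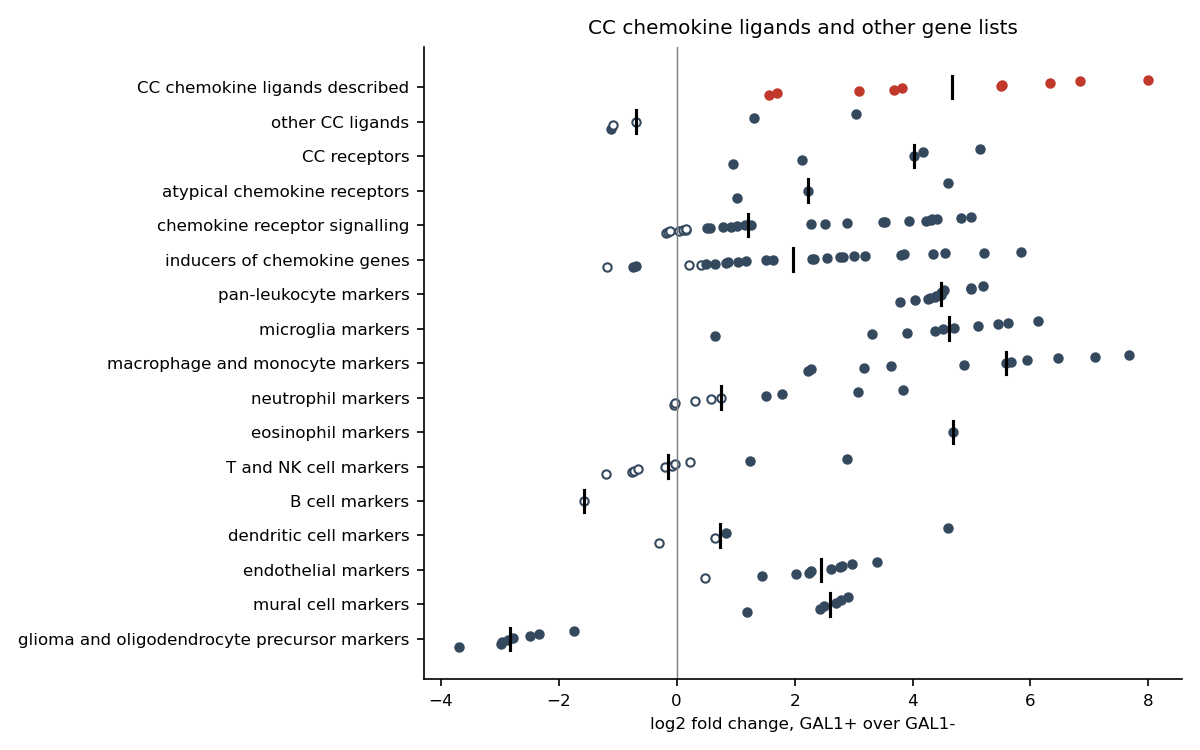
Log2 fold change of GAL1+ over GAL1- cells (x axis) for the 10 ligands (red) and other lists of genes (rows), with a point per gene, filled where called, and a black bar for the median of the list. The ligands, receptors, pan-leukocyte, microglia and macrophage lists lie to the right, with medians from 4.03 to 5.59, T and NK cell markers lie around 0 and glioma markers lie to the left.

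Microglia and macrophage markers moved the same way, and neutrophil and dendritic cell markers did so only in part. Of 10 microglia markers, all 10 were higher in GAL1+ than GAL1- cells (median 4.61), from 0.66 for *Sall1* to 6.12 for *Fcrls*, and of 11 macrophage and monocyte markers all 11 were (median 5.59), from 2.22 for *Itga4* to 7.67 for *F13a1*. The summed level of the macrophage list ran from 5.30 to 6.85 on the log2 CPM scale in GAL1- libraries and from 11.1 to 11.4 in GAL1+ libraries, and that of the microglia list from 6.37 to 7.26 and from 10.8 to 11.3. Neutrophil markers (median 0.76) were called higher for 4 of 9 genes, with *Csf3r* at 3.84 and *Lcn2* at −0.05. T and NK cell markers were called higher for 2 of 10, with *Klrb1c* at 2.89 and *Cd8b1* at −1.20, beside 28.9% of all genes. *Siglecf*, the only eosinophil marker with a value, rose by 4.68, *Itgax* led the dendritic cell markers at 4.60 with 2 of 4 called, and *Igkc* of the B cell list was at −1.58 and not called. Endothelial markers were higher for 9 of 10 genes, up to 3.40 for *Pecam1*, and mural cell markers for 6 of 6, up to 2.91 for *Vtn*. All 8 glioma and oligodendrocyte precursor markers were lower, from −1.73 for *Cspg4* to −3.70 for *Dll3*. The part of these cell types in the ligand results was not tested.

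Across the 12 libraries, the ligands rose and fell together to different degrees. Pearson's r of log2 CPM was highest between *Ccl6* and *Ccl9* (0.991) and lowest between *Ccl2* and *Ccl24* (0.306). The libraries share tumors and populations, so these values describe the data and carry no test. With the population means removed, which leaves the differences between tumors and the noise, *Ccl6* and *Ccl9* still varied together (0.956), as did *Ccl2* and *Ccl7* (0.939), both pairs of neighbors on the chromosome. Pairs that are not adjacent came next, among them *Ccl5* and *Ccl6* (0.893), *Ccl5* and *Ccl8* (0.870), *Ccl4* and *Ccl12* (0.867) and *Ccl3* and *Ccl9* (0.864), ahead of the neighbors *Ccl3* and *Ccl4* (0.836). *Ccl12* and *Ccl8*, also neighbors, had an r of 0.337, which was −0.120 without the PDGFRA- library of T5, and *Ccl2* and *Ccl24* varied in opposite directions (−0.685). In single libraries, *Ccl2* and *Ccl7* were highest in T3, and *Ccl24* was lowest in T3 and highest in T5, in each of the 4 populations.

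**Figure D5:**
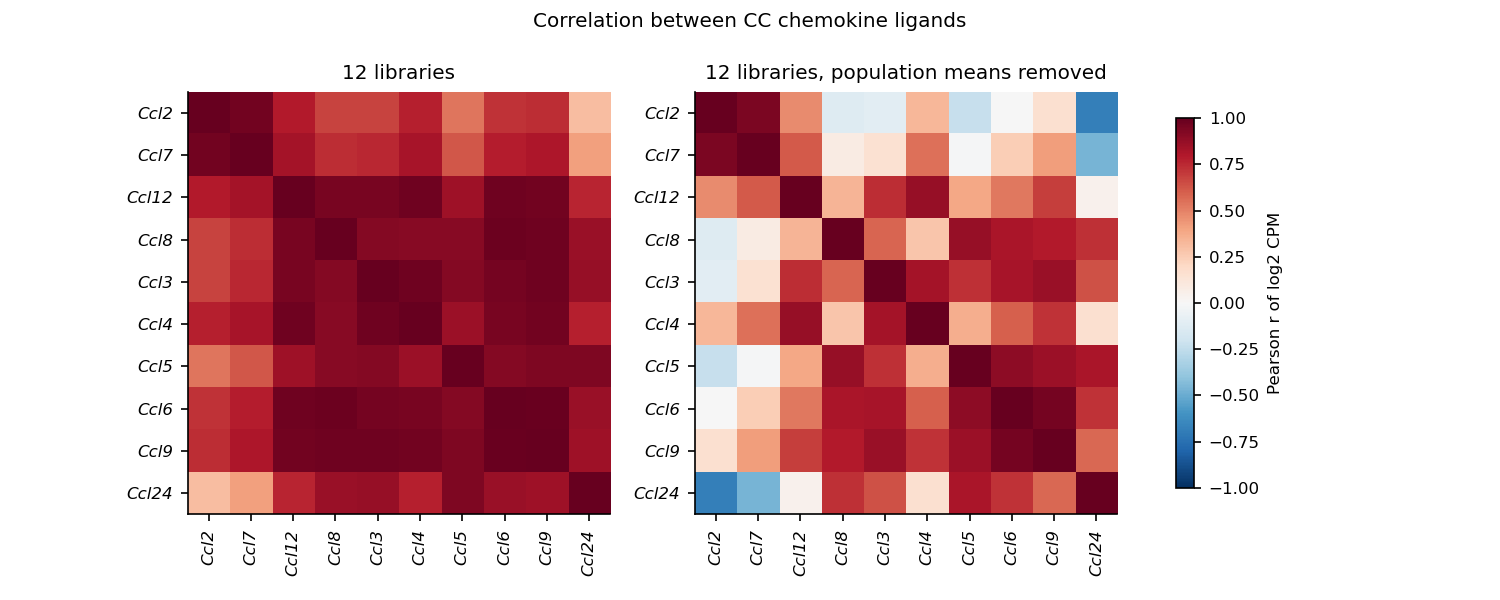
Pearson's r between pairs of the 10 ligands (both axes, grouped by chromosomal neighborhood) over 12 libraries, on the left for log2 CPM and on the right after subtraction of each population's mean, with red positive and blue negative. Within the run that starts with *Ccl5*, the genes are not in their order along the chromosome. On the left all pairs are positive, and on the right *Ccl2* and *Ccl7* form a pair that is weakly or negatively related to *Ccl5*, *Ccl8* and *Ccl24*.

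The mean standardized level of the 10 ligands was compared with 13218 other genes of sufficient level. The 5 most alike over the 12 libraries were *Slfn2* (r = 0.996), *Tlr13* (0.994), *Ctla2b* (0.994), *Ctsc* (0.994) and *Alox5ap* (0.993), and *Ptprc* had an r of 0.964. Each ligand was also compared with the mean of the other 9, where *Ccl9* had the highest r (0.994) and *Ccl2* the lowest (0.729). In the mean log2 CPM of the 10 ligands, the libraries of GAL1- cells lay between 0.01 and 1.20 and those of GAL1+ cells between 5.20 and 5.59, with the PDGFRA- library of T5 at 5.22 and the other PDGFRA libraries between 3.15 and 4.27.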

How the data were processed

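Values were log2 CPM as the authors deposited them. Per the labels and the study's methods, RNA (1 ng per library) was made into stranded total RNA libraries, reads were filtered with fastp, aligned with STAR to mm39 and counted with featureCounts, with multi-mapping reads as fractions, and genes were kept where 3 or more samples had a CPM above 1, then normalized with TMM and passed through voom, which adds 0.5 to each count. Reads were recovered here by taking each library's lowest value as 0 counts. 41.3% to 59.2% of recovered values were whole within 0.01.

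limma 3.58.1 in R 4.3.3 was fitted to all 12 libraries with tumor as a block and an intensity trend in the prior variance (residual degrees of freedom 6, prior 3.49). The tumor numbers in the sample titles pair the libraries: 18 pairs from the same tumor had a mean correlation of deviations of 0.486 (0.140 to 0.662). The members and lists were chosen with earlier results of these data known. Named genes were the 10 ligands, 4 sort checks, all CC and atypical receptors, of each other list at most the 2 largest and 2 smallest fold changes of GAL1+ over GAL1- cells, and the 5 genes most like the ligand mean, predicted genes left out. Some named items are not reported here. The tumors are the replicates. Intervals and the floor of 3 reads cover counting or model error only. Self-test: on simulated data of GAL1+ over GAL1- cells, 200 of 18180 genes were changed in each of 5 runs. There, 83.6% of 4-fold and 43.4% of 2-fold changes were called, and 6.3% of calls were false. In the data 58.2% of genes were called, a far larger share, so these rates need not hold for that comparison. Promoters are RefSeq's on GRCm38.p6, a build other than the files' mm39. Figures used matplotlib 3.10.9. Alternatives are given in the closing section.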

Additional observations from a re-analysis of the deposited data

Results flagged for a closer look

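The difference of GAL1+ over GAL1- cells was larger than that of PDGFRA- over PDGFRA+ cells for every one of the 10 ligands, by the test of that difference in limma's fit. On the log2 scale it was 1.58 for *Ccl2*, 1.93 for *Ccl7*, 6.35 for *Ccl12* and 8.49 for *Ccl8* among the monocyte chemoattractant group. It was 3.29 for *Ccl3*, 3.34 for *Ccl4*, 2.51 for *Ccl5*, 5.70 for *Ccl6*, 5.43 for *Ccl9* and 5.24 for *Ccl24*. *Ccl5* had the highest adjusted p, 0.0129, and each ligand had the same sign in all 3 tumors. The difference was called and positive for 16.6% of all genes, and without T3 it was called for 6 ligands. All 14 pan-leukocyte genes were called positive too, with a median of 4.10 beside 4.29 for the ligands, so the result was not particular to the ligands. The GAL1- values behind *Ccl8* and *Ccl24* rest on 0 to 16 reads. The study named 8 of the 10 ligands for higher levels in these GAL1+ libraries, so the direction is not independent of that choice.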

How the results depend on the processing

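All 10 ligands were called in GAL1+ over GAL1- cells, and 0 in PDGFRA+ over PDGFRA- cells, under each of 14 alternatives. Without the replicate block, 3 ligands were called in PDGFRA+ over GAL1+ and 0 in PDGFRA- over GAL1+ cells. The latter count was 1 with no mean-variance trend, 7 with centring on the library median, 5 with voom weights and 8 without the PDGFRA- library of T5, a choice made after the data were seen, as was leaving out the GAL1- library of T3. The shares of all genes called were 14.8% with no trend, 22.5% with centring, 21.2% with voom weights and 32.1% without the PDGFRA- library of T5. Leaving out a tumor gave 1 to 9 calls in PDGFRA+ over GAL1+, 0 to 9 in PDGFRA+ over GAL1-, 0 to 5 in PDGFRA- over GAL1+ (up to 8 when the library above is counted), 5 to 10 in PDGFRA- over GAL1- cells and 6 to 10 between the sorts. Relative to pan-leukocyte genes the ranges were 4 to 9 in GAL1+ over GAL1-, 0 to 2 in PDGFRA+ over GAL1+ and 0 to 1 in PDGFRA+ over PDGFRA- cells. There, each gene's own spread called 10 and log2(CPM + 1) called 3 in GAL1+ over GAL1- cells and turned *Ccl24* to −0.35. In PDGFRA+ over PDGFRA- cells, where no ligand was called, signs turned with voom weights for *Ccl2* (−0.027) and *Ccl12* (−0.0599), and leaving out a tumor or library gave −0.34 to 0.29 for *Ccl2*, −0.32 to 0.52 for *Ccl6*, −0.15 to 0.54 for *Ccl7*, −0.94 to 0.47 for *Ccl9* and −0.87 to 0.67 for *Ccl12*. Uncalled relative values of PDGFRA+ over GAL1+ cells ran from −0.13 to 0.025 for *Ccl3*, −0.011 to 0.21 for *Ccl4*, −0.14 to 0.63 for *Ccl5*, −0.087 to 0.17 for *Ccl8* and −0.099 to 0.0050 for *Ccl9*. The cause was not tested.

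Over all genes, calls fell without the block from 6900 to 3154 in PDGFRA+ over GAL1+, from 1504 to 612 in PDGFRA+ over GAL1-, from 3652 to 725 in PDGFRA- over GAL1+ and from 4200 to 1444 in PDGFRA- over GAL1- cells. Centring moved the share of higher calls from 55.1% to 40.8% in PDGFRA+ over GAL1+ and from 65.6% to 46.9% in PDGFRA- over GAL1+ cells, and in PDGFRA- over GAL1- cells quantile normalization moved it from 70.2% to 47.2% (centring 51.4%). The median of all genes moved to −0.15 with centring in PDGFRA+ over GAL1+ and with quantile normalization in PDGFRA+ over GAL1- cells. Leaving out a tumor gave 2110 to 4863 calls in PDGFRA+ over GAL1+, 0 to 1126 in PDGFRA+ over GAL1-, 0 to 3647 in PDGFRA- over GAL1+, 920 to 3287 in PDGFRA- over GAL1- cells and 1896 to 4224 between the sorts (5651 with all, 2592 without the block). With only the groups compared there were 3386 in PDGFRA+ over GAL1-, 1893 in PDGFRA- over GAL1+ and 1328 in PDGFRA- over GAL1- cells. Relative to pan-leukocyte genes, PDGFRA+ over GAL1+ cells had 12045 calls, 7582 without the block, 2513 with each gene's own spread and 1872 to 15577 with a tumor left out, and PDGFRA+ over PDGFRA- cells had 0, and 9697 without T4.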
